A study of Arabidopsis thaliana with 18 samples.

Results

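Heat-shock factors and chaperones were described here in cold-treated seedlings of Arabidopsis thaliana. The members were 31 genes taken by their gene identifiers from a deposited table of 33557 genes. No measured value entered that rule, but the list was chosen with earlier results of these data known. They comprise 10 small heat-shock proteins (HSPs), HSP101, 5 HSP70 genes, 4 HSP90 genes, 10 heat-shock factors (HSFs) and the coactivator MBF1C. All 31 were in the table, and 24 passed the filter on low values, which asked for at least 1 FPKM in at least 3 libraries. FPKM counts fragments relative to transcript length and to the total of the library.

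RNA came from whole seedlings, 14 days old, of wild-type Col-0 (WT) and of the mutant stch4-1, which the labels place in the same Col-0 background. Both groups had been kept at 4 °C for 4 h, and each had 3 libraries, here named a, b and c as the table lists them. STCH4, also named REIL2, is a factor of late ribosome maturation, and the comparison asks how its mutation bears on transcript levels in the cold. The series names 18 samples, and the 12 of 0 h or 24 h of cold are not analysed here, so levels before cold cannot be set beside these. The labels do not say what lesion stch4-1 carries, nor whether the 3 samples of a group were grown separately, so each p-value speaks of the spread among these samples, which may be technical.

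Chaperones hold unfolded proteins in solution and help them fold. Small HSPs bind unfolding proteins without using ATP, HSP70 and HSP90 work through cycles of ATP hydrolysis, and HSP101 pulls proteins out of aggregates. In plants, HSFs of class A bind heat-shock elements, inverted repeats of the bases GAA, and activate chaperone genes. HSFA1 factors are present without stress and are held inactive by HSP70 and HSP90, HSFA2 is itself made in heat, and most class B factors lack an activation domain and act as repressors. The list is not wholly cytosolic: HSP21 is a plastid protein, HSP23.6 mitochondrial, HSP22.0 of the endoplasmic reticulum and HSP15.7 peroxisomal.

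REIL2 (AT2G24500) read 31.2, 34.1 and 36.0 FPKM in WT and 5.65, 5.44 and 5.80 in stch4-1, so the mutated gene followed the labels. Relative depth, read from the steps of low values, ran from 1 to 1.44, with the shallowest and the deepest library both WT. Summed FPKM was 878394 to 919309 in WT and 947218 to 987059 in stch4-1. Most root markers stood apart between the genotypes. Of 13 tested, 10 were called lower in stch4-1 and 0 higher, where 14.0% of all genes tested were called lower and 18.5% higher. EXPA7 and EXPA18 overlapped between genotypes and were not called, with ratios of stch4-1 to WT means of 1.02 and 1.17. Summed FPKM over the root markers was 1812 to 1845 in WT and 1567 to 1607 in stch4-1, most of it from PYK10. Green-shoot markers had 1 of 7 called higher and 0 lower, or 0 and 1 under quantile normalization, which forces the same distribution of values on all libraries. Seed markers, which matter because seeds make small HSPs, were near 0: none of 9 passed the filter, SESA3 was listed at 0 in every library, and the sum was at most 1.16 FPKM. In whole seedlings, fewer cells of a type and less RNA per cell cannot be told apart.

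In stch4-1, 6 of the 9 HSP70 and HSP90 genes, both class B factors of the list, HSFA4A and MBF1C were called higher, whereas HSFA6B and the small HSP gene HSP18.2 were called lower. Of the 24 tested members, limma called 10 higher and 2 lower in stch4-1 at a Benjamini-Hochberg adjusted p under 0.05, and 12 did not pass. Over all 19289 genes tested, 18.5% were called higher and 14.0% lower. Those shares stand for 3576 and 2704 genes, which became 2614 and 3108 under quantile normalization, so the larger share turned from higher to lower, while the members had 9 higher and 2 lower. The median log2 fold change of the tested members was 0.14, against 0.01 over all genes tested. All 3 stch4-1 libraries lay above all 3 WT libraries in 13 tested members and below them in 2, where 25.1% and 22.7% of all genes tested did so. Fold changes are on the log2(FPKM + 1) scale, stch4-1 minus WT, which understates the change of low genes.

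**Figure D1:**
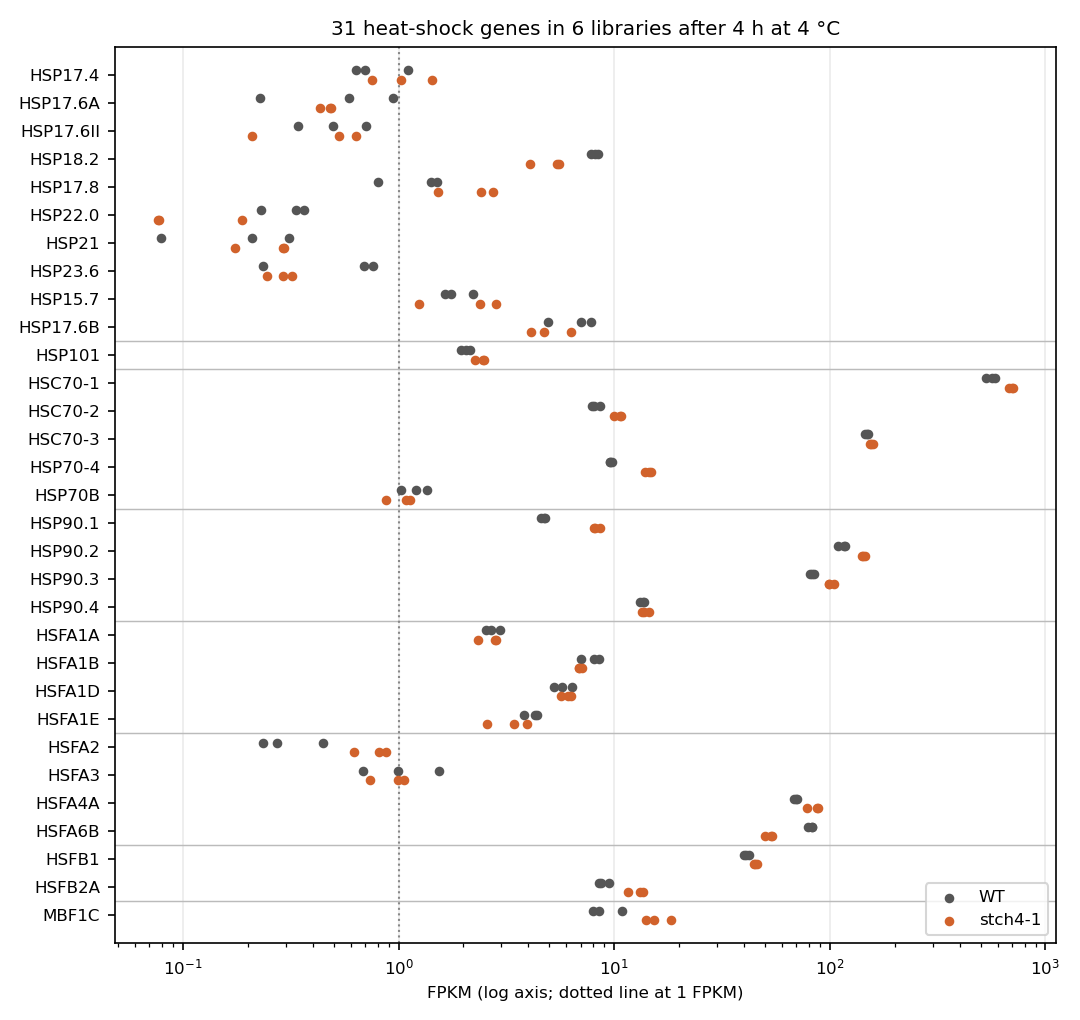
FPKM of each of the 31 members in each library, on a log axis, with 1 point per library, grey for WT and orange for stch4-1, and horizontal lines between classes. HSC70-1 lies highest, at 533 to 711 FPKM, while most small HSPs and HSFA2 lie near or under the dotted line at 1 FPKM.

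Among the HSP70 genes 3 of 5 were called higher in stch4-1 and 0 lower, against 18.5% and 14.0% of all genes tested. HSC70-1 (AT5G02500), the main constitutive cytosolic HSP70, read 533, 584 and 563 FPKM in WT and 697, 679 and 711 in stch4-1. Every stch4-1 library was above every WT library, with means of 560 ± 25.9 and 696 ± 15.9 FPKM (SD, n = 3). The limma log2 fold change of HSC70-1 was 0.31 ± 0.043 (SE), with an adjusted p of 0.0014. Under quantile normalization it was 0.15, and limma still called it (adjusted p = 0.0253).

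HSP70-4 (AT3G12580), a cytosolic HSP70 strongly induced by heat, was at 9.76, 9.55 and 9.54 FPKM in WT and at 14.9, 13.9 and 14.5 in stch4-1. Its libraries separated fully by genotype, with means of 9.62 ± 0.124 and 14.4 ± 0.497 FPKM (SD, n = 3). Limma gave HSP70-4 a log2 fold change of 0.54 ± 0.052 (SE) and an adjusted p of 0.00032. HSC70-2 (AT5G02490) lies next to HSC70-1 on chromosome 5, on the same strand, 917 bases away in the RefSeq annotation of TAIR10.1. Its values were 7.93, 8.09 and 8.64 FPKM in WT and 9.97, 10.7 and 10.7 in stch4-1, again without overlap (log2 fold change of 0.31 by limma with an adjusted p of 0.00664). The levels of HSC70-1 and HSC70-2 thus lay far apart, while their measured ratios of means were 1.24 and 1.27.

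HSC70-3 (AT3G09440), a further constitutive cytosolic member, did not pass. It read 145, 149 and 150 FPKM in WT and 156, 159 and 153 in stch4-1, separated but by a ratio of means of only 1.05 (limma adjusted p = 0.113). Its sign depended on the setting: the log2 fold change was 0.07 as reported, -0.07 under quantile normalization, and 0.17 with a call once the trend of fold change with transcript length was removed (limma adjusted p = 0.00628). A gene on the opposite strand, AT3G09430, overlaps it by 863 bases and stood at 0.759 to 1.28 FPKM. AT3G02205, on the same strand and without a row in the table used here, overlaps it by 122 bases. Of all exact 50-base windows in the annotated exons of HSC70-3, 16.8% also occurred in exons of AT3G09430 or AT1G56410, so its value is uncertain. HSP70B (AT1G16030), which is nearly silent without heat, lay between 0.873 and 1.35 FPKM in the 6 libraries, with overlap between genotypes (limma adjusted p = 0.493).

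The HSP90 genes had 3 of 4 members called higher and 0 lower, against 18.5% and 14.0% of all genes tested. HSP90.1 (AT5G52640), the heat-inducible cytosolic HSP90, read 4.58, 4.77 and 4.72 FPKM in WT and 8.10, 8.64 and 8.15 in stch4-1. The 2 groups were far apart compared with their spread, at 4.69 ± 0.0979 and 8.30 ± 0.298 FPKM (SD, n = 3), a ratio of 1.77. Limma gave HSP90.1 a log2 fold change of 0.71 ± 0.064 (SE) and an adjusted p of 0.000228.

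HSP90.2 (AT5G56030), HSP90.3 (AT5G56010) and HSP90.4 (AT5G56000) are constitutive cytosolic HSP90s that lie close together on chromosome 5. HSP90.2 was at 110, 116 and 118 FPKM in WT and at 146, 142 and 141 in stch4-1 (log2 fold change of 0.32 by limma with an adjusted p of 0.000799). HSP90.3 was at 81.3, 84.1 and 82.7 in WT and at 99.4, 104 and 99.0 in stch4-1 (log2 fold change of 0.28 by limma with an adjusted p of 0.000978). In both, every stch4-1 library was above every WT library. HSP90.4 was at 13.2, 13.6 and 13.8 FPKM in WT and at 13.4, 13.7 and 14.4 in stch4-1, ranges that overlapped, and it did not pass (limma adjusted p = 0.687).

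These HSP90 copies are alike in sequence. Of all exact 50-base windows in annotated exons, 18.9% of those of HSP90.2, 24.8% of those of HSP90.3 and 19.5% of those of HSP90.4 also occurred in another HSP90 gene of this trio. How fragments that match several genes were assigned is not given in the sources used here, so the split between the copies is uncertain. HSP90.1 shared no such window with any other gene. Under quantile normalization HSP90.2 had a log2 fold change of 0.19 and HSP90.3 one of 0.18, both still called by limma (adjusted p = 0.00777 and 0.0106), and HSP90.1 stood at 0.73.

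Summed over each class, the abundant constitutive genes set the level. The HSP70 sum was 697, 752 and 733 FPKM in WT and 879, 864 and 890 in stch4-1, and HSC70-1 made up 76.5% to 77.7% of it in WT and 78.7% to 79.9% in stch4-1. The HSP90 sum was 209, 219 and 219 FPKM in WT and 267, 269 and 263 in stch4-1. Both sums were higher in every stch4-1 library, by ratios of means of 1.21 and 1.23. The median log2 fold change was 0.31 over the HSP70 genes and 0.30 over the HSP90 genes, or 0.15 and 0.19 under quantile normalization, with the same counts of calls. HSP101 (AT1G74310), the disaggregase, was low, at 1.95 to 2.15 FPKM in WT and 2.27 to 2.49 in stch4-1, and did not pass (log2 fold change of 0.16 by limma with an adjusted p of 0.203). A gene on the opposite strand, AT1G74300, overlaps HSP101 by 101 bases and read 6.17 to 8.76 FPKM.

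**Figure D2:**
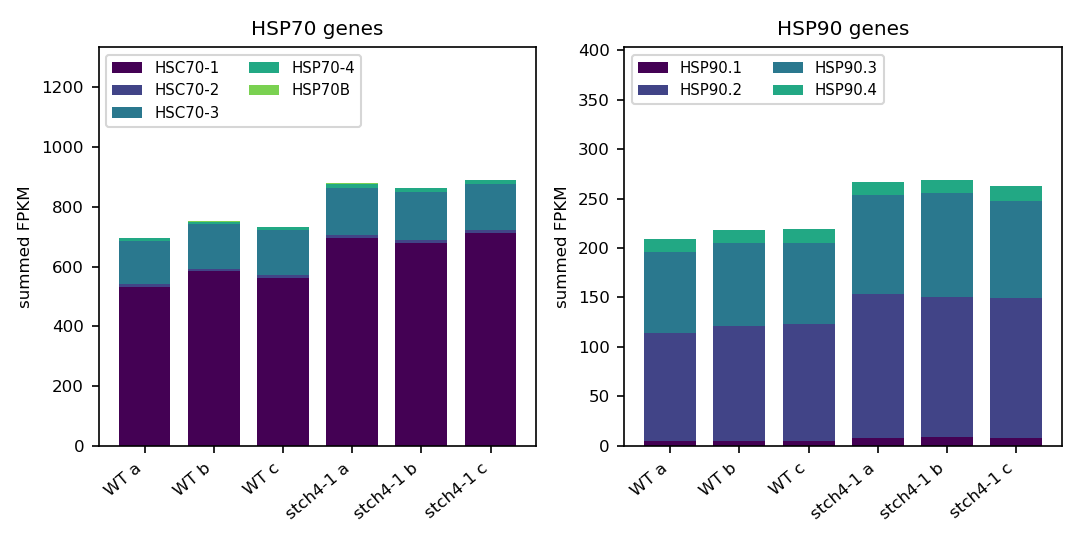
Stacked FPKM of the 5 HSP70 genes (left) and the 4 HSP90 genes (right) in each library, with 1 bar per library and 1 colour per gene. The 3 stch4-1 bars reach 864 to 890 FPKM for HSP70 and 263 to 269 for HSP90, above the WT bars at 697 to 752 and 209 to 219, and HSC70-1, HSP90.2 and HSP90.3 make up most of the difference.

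The small HSPs, the class with the steepest known heat induction, were low in the cold in both genotypes. Of 10, 5 passed the filter, and of these limma called 1 lower and 0 higher, while 1, HSP17.8, was higher at an unadjusted p under 0.05. Over all genes tested, 14.0% were called lower and 18.5% higher, so 1 of 5 is near the share called lower. HSP18.2 (AT5G59720), a class I cytosolic protein, read 8.11, 7.80 and 8.40 FPKM in WT and 4.06, 5.46 and 5.57 in stch4-1. The lowest WT library was well above the highest stch4-1 library, and the ratio of means was 0.621. Limma gave HSP18.2 a log2 fold change of -0.60 ± 0.11 (SE) and an adjusted p of 0.00428. Its exons shared no 50-base window with another gene.

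HSP17.8 (AT1G07400), another class I protein, went the other way in value, at 0.806, 1.504 and 1.42 FPKM in WT and 2.75, 1.53 and 2.41 in stch4-1. The groups did not overlap, though WT b and stch4-1 b nearly touched, and limma did not call it (log2 fold change 0.52, adjusted p = 0.0635). Without stch4-1 b it was called (0.69, adjusted p = 0.0257), and after removal of the length trend it stood at 0.36 (adjusted p = 0.188). HSP17.6B (AT2G29500), also of class I, ranged from 4.93 to 7.82 FPKM in WT and from 4.12 to 6.29 in stch4-1, with overlap (limma adjusted p = 0.19). HSP15.7 (AT5G37670), the peroxisomal form, ranged from 1.64 to 2.22 in WT and from 1.25 to 2.84 in stch4-1 (limma adjusted p = 0.706).

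HSP17.4 (AT3G46230) of class I passed the filter narrowly, at 0.635 to 1.11 FPKM in WT and 0.751 to 1.43 in stch4-1, with overlap (limma adjusted p = 0.418). On the opposite strand AT3G07365, which has no row in the table used here, overlaps it by 453 bases, and the more abundant AT3G46220, at 9.10 to 10.8 FPKM, by 60. Of its 50-base exon windows 61.5% also occur in annotated exons of these genes, so its value is uncertain. Its log2 fold change of 0.19 became -0.01 once the length trend was taken out. With that trend removed, the 5 tested small HSPs moved from a median of 0.11 to one of -0.06, so the class had no direction that held. The other 5, the class II genes HSP17.6A (AT5G12030) and HSP17.6II (AT5G12020) and the organellar HSP22.0 (AT4G10250), HSP21 (AT4G27670) and HSP23.6 (AT4G25200), lay under 1 FPKM in every library and were not tested. HSP22.0 was at 0.364, 0.336 and 0.229 FPKM in WT and at 0.0777, 0.0763 and 0.187 in stch4-1. The HSP22.0 groups did not overlap, but at such levels few fragments stand behind a value; the other 4 of these genes overlapped. Summed over all 10, small HSPs reached 19.1 to 21.8 FPKM in WT and 14.5 to 18.6 in stch4-1, and HSP18.2 and HSP17.6B supplied most of that.

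The HSFs of the list include the constitutive activators. The 4 HSFA1 genes had 0 called in either direction by limma, and 0 at an unadjusted p under 0.05, with a median log2 fold change of -0.09. Of all genes tested, 18.5% were called higher and 14.0% lower. HSFA1A (AT4G17750) lay at 2.34 to 2.96 FPKM over the 6 libraries and HSFA1D (AT1G32330) at 5.27 to 6.35. HSFA1B (AT5G16820) read 7.0003, 8.03 and 8.55 FPKM in WT and 6.86, 7.09 and 6.90 in stch4-1, where WT a lay among the stch4-1 values (log2 fold change of -0.15 by limma with an adjusted p of 0.173). HSFA1E (AT3G02990) read 4.39, 4.28 and 3.83 in WT and 3.94, 3.42 and 2.57 in stch4-1, with stch4-1 a inside the WT range (log2 fold change of -0.27 by limma with an adjusted p of 0.135).

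HSFA6B (AT3G22830), a class A factor known to act downstream of abscisic acid, had the lowest adjusted p of the members. It read 83.1, 79.3 and 82.9 FPKM in WT and 53.7, 53.7 and 50.2 in stch4-1, a wide gap with a ratio of means of 0.642. Limma gave HSFA6B a log2 fold change of -0.63 ± 0.042 (SE) and an adjusted p of 6.0e-05, and the fold change lay between -0.72 and -0.60 under every alternative run. HSFA4A (AT4G18880), a class A factor linked to responses to reactive oxygen, moved the other way. It was at 70.6, 69.7 and 68.6 FPKM in WT and at 86.9, 88.4 and 78.0 in stch4-1, with stch4-1 c nearest to WT (log2 fold change of 0.27 by limma with an adjusted p of 0.00526). HSFA6B and HSFA4A were the most abundant factors on the list in both genotypes per length.

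HSFA2 (AT2G26150), the amplifier of the heat response, did not reach the filter. It read 0.273, 0.235 and 0.446 FPKM in WT and 0.622, 0.876 and 0.810 in stch4-1, so all stch4-1 libraries were above all WT libraries. When no filter was applied, limma called HSFA2 higher (log2 fold change 0.43, adjusted p = 0.0164) and HSP22.0 lower (-0.23, adjusted p = 0.0486). HSFA3 (AT5G03720), which is induced through DREB2A, stood at 0.685 to 1.54 FPKM in WT and 0.737 to 1.06 in stch4-1, with overlap, and was not tested.

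Both class B factors of the list were called higher, as were 18.5% of all genes tested. HSFB2A (AT5G62020), a repressor, read 9.49, 8.53 and 8.72 FPKM in WT and 13.2, 13.7 and 11.6 in stch4-1, clear of each other (log2 fold change of 0.48 ± 0.075 (SE) by limma with an adjusted p of 0.00246). HSFB1 (AT4G36990), also called TBF1 and known in both heat and immune responses, read 40.1, 42.2 and 40.9 in WT and 46.0, 44.5 and 44.8 in stch4-1. Its gap was narrow, with a ratio of means of 1.10 (log2 fold change of 0.13 by limma with an adjusted p of 0.0317). The HSFB1 call was lost under quantile normalization (0.07, adjusted p = 0.193), without the eBayes trend (adjusted p = 0.066), and when WT a, WT c, stch4-1 a, stch4-1 b or stch4-1 c was left out (adjusted p from 0.0591 to 0.103).

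MBF1C (AT3G24500), a coactivator that accumulates in heat and is needed for thermotolerance, read 10.9, 7.99 and 8.53 FPKM in WT and 14.0, 18.4 and 15.3 in stch4-1. Its libraries scattered more than those of the abundant chaperones, yet the highest WT value was below the lowest stch4-1 value. The means were 9.14 ± 1.54 and 15.9 ± 2.26 FPKM (SD, n = 3), and limma gave MBF1C a log2 fold change of 0.74 ± 0.13 (SE) and an adjusted p of 0.00363. The gene AT3G24503 on the other strand overlaps the end of the annotated MBF1C span by 124 bases and stood higher, at 93.0 to 96.6 FPKM in WT and 80.4 to 85.2 in stch4-1. AT3G04685, also on the other strand and without a row in the table used here, overlaps MBF1C by 176 bases. Of the 50-base exon windows of MBF1C, 17.3% also occur in annotated exons of these genes. AT3G24495, also on the other strand, overlaps MBF1C by 22 bases and stood at 1.88 to 2.82 FPKM. AT3G24503 read lower in every stch4-1 library, and AT3G04685 has no value to set beside it. Whether counting used strand is not given in the sources used here. The part of reads from these overlapping genes in the MBF1C value, and in its difference between genotypes, was not tested.

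**Figure D3:**
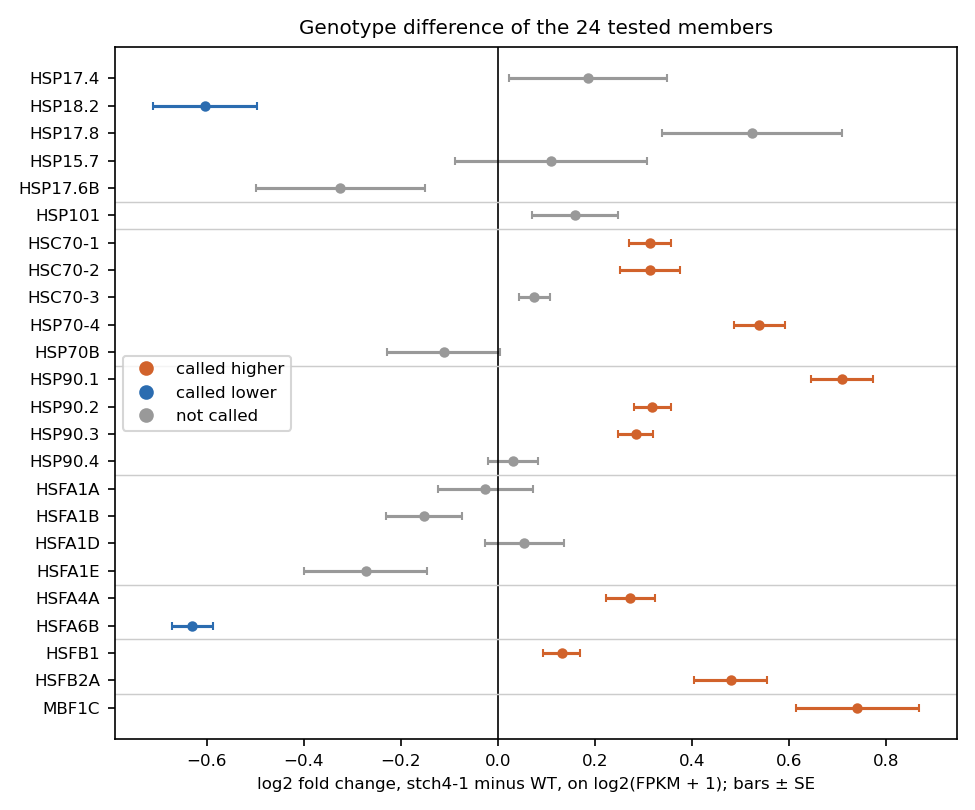
Log2 fold change, stch4-1 minus WT, of each of the 24 tested members, with bars of 1 SE, in orange for those called higher, blue for lower and grey for not called. MBF1C at 0.74 and HSP90.1 at 0.71 lie farthest to the right, HSFA6B at -0.63 and HSP18.2 at -0.60 farthest to the left, and the 4 HSFA1 genes lie around 0.

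Windows of 300 bases upstream of each annotated gene start, read from the RefSeq assembly TAIR10.1 with its own annotation, were searched for the perfect heat-shock element of 3 units, GAANNTTCNNGAA or its reverse complement TTCNNGAANNTTC. The deposited table was made on TAIR10 and holds no coordinates. The element was in 3 of 31 member windows, or 9.68%, and in 0.479% of the 32809 windows of all genes of the table that have one. A shorter element of 2 units, GAANNTTC or TTCNNGAA, which the longer one contains, was in 9 of 31 member windows (29.0%) and in 19.2% of all windows. The 3 members with the long element are shown because they take part in the results above: HSP90.1, which rose, HSFA2, higher in each stch4-1 library but under the filter, and HSP17.4, which did not pass. Capitals mark the GAA and TTC units of the long element, and each line gives 120 bases, 5′ to 3′ on the gene's strand.
HSP90.1 (TAIR10.1, chr5:21352257-21352376, plus strand, bases 300 to 181 upstream of the gene start): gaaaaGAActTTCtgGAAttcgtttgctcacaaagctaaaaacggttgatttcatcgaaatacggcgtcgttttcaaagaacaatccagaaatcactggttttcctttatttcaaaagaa
HSFA2 (TAIR10.1, chr2:11135504-11135623, plus strand, bases 120 to 1 upstream): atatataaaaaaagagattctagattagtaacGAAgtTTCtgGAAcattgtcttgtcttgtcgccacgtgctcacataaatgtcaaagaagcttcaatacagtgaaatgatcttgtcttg
HSP17.4 (TAIR10.1, chr3:16984868-16984987, minus strand, bases 120 to 1 upstream): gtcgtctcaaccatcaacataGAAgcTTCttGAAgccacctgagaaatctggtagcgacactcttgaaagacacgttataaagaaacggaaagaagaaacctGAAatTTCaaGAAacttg

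HSP90.1 and HSFA2 hold 1 long element each, and HSP17.4 holds 2. Distances count from the annotated gene start, which was not checked against where transcription begins, so they are not compared between genes. For HSP90.1 the 300-base window ends in atggcggatgttcag, which opens with a start codon, so that window may reach into coding sequence. Of the 10 members called higher, HSP90.1 was the one with the long element in its window. Among the other called members, HSC70-2 and HSFA4A had only the shorter element there. HSC70-1, HSP70-4, HSP90.2, HSP90.3, HSFB1, HSFB2A, MBF1C, HSFA6B and HSP18.2 had neither form in their windows. A match is only a run of letters in this window, and elements with other spacing, further upstream or past the annotated gene start were not searched.

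Genes of the heat response outside the members were counted by lists written from general knowledge. Of 64 such genes 56 were tested, 18 were called higher and 4 lower by limma (median log2 fold change 0.07), or 14 and 7 at a median of 0.01 under quantile normalization. Over all 19289 genes that scaling gave 2614 higher and 3108 lower, with a median of -0.01. Co-chaperones, which load or release clients of HSP70 and HSP90, had 8 of 19 members higher and 1 lower, against the 18.5% and 14.0% of all genes. AT2G20560, a J-domain protein of the HSP70 cycle, read 5.50, 5.23 and 5.08 FPKM in WT and 7.46, 8.21 and 8.08 in stch4-1 (log2 fold change of 0.51 by limma with an adjusted p of 0.00126). HOP1 (AT1G12270), which bridges HSP70 and HSP90, read 19.5, 19.6 and 20.3 in WT and 16.0, 18.1 and 17.3 in stch4-1, and was the lowest called (log2 fold change of -0.20 by limma with an adjusted p of 0.0281). The HOP1 call was lost in 5 of the 6 fits that left out 1 library (adjusted p from 0.0544 to 0.0911), all but that without stch4-1 b.

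Organellar and other HSP70, HSP90 and HSP100 genes had 5 of 16 tested higher and 0 lower, with a median of 0.05. Over all genes tested, 18.5% were called higher and 14.0% lower. HSP90.5 (AT2G04030), the plastid HSP90, was at 78.8, 81.1 and 83.0 FPKM in WT and 99.1, 101 and 96.3 in stch4-1 (log2 fold change of 0.28 by limma with an adjusted p of 0.00104). The plastid HSP70 gene cpHsc70-2 (AT5G49910) was called at 0.14 (limma adjusted p = 0.0109) but stood at 0.00 under quantile normalization, where the list as a whole had 2 higher and 3 lower. HSP90.5 was still called higher under that scaling (0.19, limma adjusted p = 0.0114). Among the remaining small HSPs 3 of 6 tested were higher and 0 lower, against the same 18.5% and 14.0%. HSP18.5 (AT2G19310) went from 30.0, 30.9 and 29.7 FPKM in WT to 63.4, 61.2 and 60.5 in stch4-1, which is 1.01 on the log2 scale (limma adjusted p = 5.2e-06) and farther than any tested member. HSP15.4 (AT4G21870) read 9.34, 9.30 and 10.6 in WT and 12.9, 12.7 and 12.6 in stch4-1 (log2 fold change of 0.35 by limma with an adjusted p of 0.00459).

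The remaining HSF genes, with the HSF-binding protein HSBP, had 1 of 9 tested higher and 2 lower, against 18.5% and 14.0% of all genes tested. HSFB4 (AT1G46264), a class B factor of root stem cells, read 8.04, 6.48 and 6.56 FPKM in WT and 8.53, 10.6 and 10.0 in stch4-1 (log2 fold change of 0.42 by limma with an adjusted p of 0.017, or 0.0599 without WT c and 0.0566 without stch4-1 b). Most root markers given above were lower in stch4-1, and the part of root tissue in the HSFB4 value was not tested. HSFB3 (AT2G41690) read 2.04, 2.29 and 1.60 in WT and 0.574, 1.02 and 1.36 in stch4-1 (log2 fold change of -0.60 by limma with an adjusted p of 0.0291), and lost its call when WT a, WT b or either of stch4-1 a and b was dropped (adjusted p between 0.0611 and 0.0831). HSFA9, a seed factor, was listed at 0 in all 6 libraries. Of 6 other heat-induced genes tested, 1 was higher and 1 lower, against the same shares of all genes. BOB1 (AT5G53400), a small chaperone needed for development and thermotolerance, was at 30.8, 32.4 and 29.6 FPKM in WT and 39.3, 37.1 and 37.7 in stch4-1 (log2 fold change of 0.29 by limma with an adjusted p of 0.00308). DREB2A (AT5G05410), the activator of HSFA3, was at 70.4, 68.5 and 68.2 in WT and 57.7, 60.2 and 55.9 in stch4-1 (log2 fold change of -0.25 by limma with an adjusted p of 0.00257).

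The scaling bore most on the abundant members. The log2 fold change of HSC70-1 moved from 0.31 to 0.15 under quantile normalization, while HSP70-4, HSP90.1, HSFB2A and MBF1C, all under 20 FPKM, moved by less than 0.03. Of the 12 called members 11 kept their call and direction under that scaling, HSFB1 being the exception, and all 12 kept both after removal of the length trend. Of the 13 tested root markers, 10 were called lower in stch4-1, as were HSFA6B and HSP18.2, but EXPA7 and EXPA18 were not lower in mean. The part of root tissue in the HSFA6B and HSP18.2 values was not tested.

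**Figure D4:**
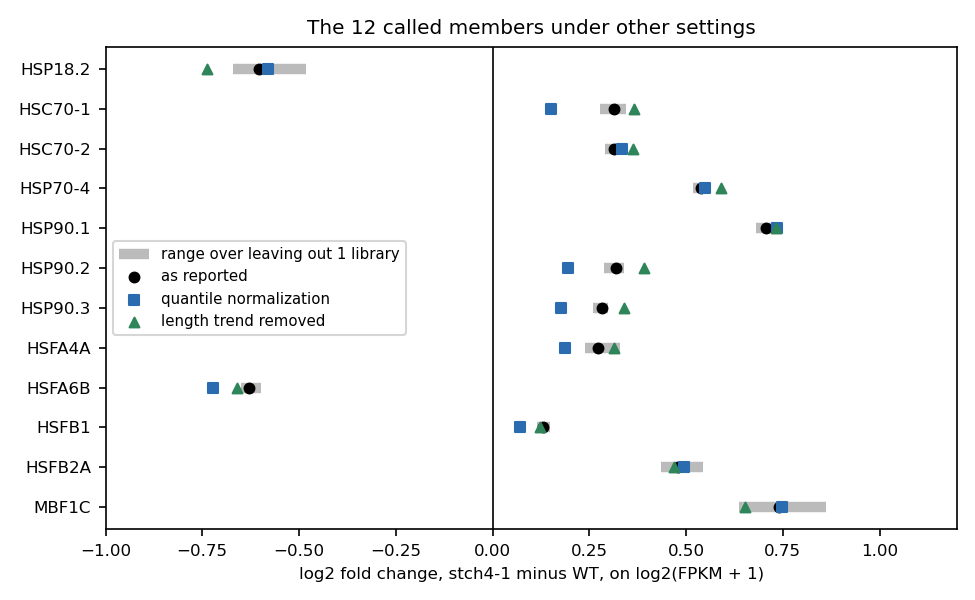
Log2 fold change, stch4-1 minus WT, of the 12 called members as reported (black circles), under quantile normalization (blue squares) and with the length trend removed (green triangles); grey bars span the fits that left out 1 library each. No marker crosses 0, and the blue squares of HSC70-1, HSP90.2, HSP90.3 and HSFA4A lie left of the black circles.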

How the data were processed

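The authors deposited FPKM per gene for 6 libraries, made with TopHat2 and Cufflinks on TAIR10, per the submitters' processing notes. The sources used here give no versions, no filters, no strand setting and no rule for multiply matching reads. FPKM keeps no fragment count, so relative depth was read from the most frequent ratio of values below 0.6 FPKM between libraries. Columns carry genotype and time, but their numbers do not match the titles', so libraries were mapped to groups alone.

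Genes with at least 1 FPKM in at least 3 libraries were tested as log2(FPKM + 1) with limma 3.58.1 in R 4.3.3, 2-sided, with eBayes following the intensity trend and Benjamini-Hochberg adjustment over all 19289 genes. Each group had 3 libraries, which left 4 residual degrees of freedom. On simulated data with 200 changed genes of 19289 the fit found 58% where the log2 change was 0.5 and 88% where it was 1. Of its calls 7.59% were false. The measured data had far more calls, 3576 higher and 2704 lower, so these rates need not hold there. Exon lengths, upstream windows and shared 50-base windows came from the RefSeq annotation of TAIR10.1, with Python 3.11.15 and pandas 2.3.3. Length was known for 99.3% of tested genes, and its trend was removed with lowess at a span of 0.3.

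The members, gene lists, tests and alternatives were chosen with earlier results of these data known. Named genes were all 31 members, REIL2, and the highest and lowest called gene of each other heat-response list; markers and overlapping genes are named where a result touches them. Alternatives were a pseudocount of 0.1, no filter, a mean of at least 5 FPKM, quantile normalization, no eBayes trend, removal of the length trend, and leaving out each library.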

Additional observations from a re-analysis of the deposited data

How the results depend on the processing

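The counts of members called, 10 higher and 2 lower, stayed within 9 to 11 and 2 to 3 under all 12 alternatives. The median log2 fold change of tested members, 0.14, became 0.0746 without the filter, where all 31 members entered, and 0.27 with a mean of at least 5 FPKM, where 17 did; it ranged from 0.12 to 0.19 when 1 library was left out, highest without stch4-1 b. Heat-response genes outside the members called lower went from 4 to 7 under quantile normalization; the cause was not tested. No named gene that was called changed direction. For single genes, leaving out a library ended 16 calls and added 1, and the other alternatives ended 3 and added 1, besides the calls of HSFA2 and HSP22.0, which were tested without the filter alone, with the genes and values given above. No paired analysis was possible because the columns do not carry the replicate numbers of the titles. Genes under about 1 FPKM, among them 5 small HSPs, HSFA2 and HSFA3, limit what the libraries can show, since FPKM steps there with single fragments. With 1 library left out, the smaller group is assumed to vary like the other.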
